A study of Mus musculus with 2 samples.

Results

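The endoplasmic reticulum (ER) protein folding and unfolded protein response genes described here are 42 genes, found by symbol among the 32285 gene rows of each count matrix. The symbols matched 43 rows, because Ddit3 names a pair of Ensembl identifiers at overlapping loci. ENSMUSG00000025408 was used for Ddit3, and the other row held no counts. The 42 genes comprise 11 chaperones and co-chaperones, 5 disulfide isomerases and redox enzymes, 7 subunits of the Sec61 translocon and its partner TRAP, 3 KDEL receptors, 7 genes of ER-associated degradation, 5 stress sensors and transcription factors, and 4 targets of ATF4 and CHOP. Every one of the 42 was detected in both libraries.

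The cells were PLZF/RARA-transformed progenitors from mouse leukemic bone marrow, sorted as late promyelocytes by the surface profile Cd45.2+, C-Kit+, Gr1+, Cd34-, FcγR+. PLZF/RARA is the oncogenic fusion of the zinc finger protein PLZF with retinoic acid receptor alpha, and cells of both groups carried it. One group received retinoic acid (0.8 to 1 mg) and the other its vehicle, corn oil with 10% DMSO, both given intraperitoneally over 7 days to cohorts of 3 to 5 mice. Each group is 1 single-cell 3′ library, and the number of mice behind a library, their strain and age, and the way the fusion was introduced are not given in the sources used here. With 1 library a group there is no replicate and no test. Every interval below is an exact 95% interval that covers counting error only, so a difference between the libraries includes whatever differed between the mice, sorts and preparations.

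The vehicle library held 5476 cells with a median of 16750 UMIs (unique molecular identifiers, each marking 1 captured RNA molecule). The retinoic acid library held 7140 cells with a median of 14604 UMIs. The libraries shared 11 cell barcodes, 0.19% of the vehicle and 0.148% of the retinoic acid barcodes. Of the genes of the sorted antigens, Ptprc (CD45), Kit, Fcgr3 and Ly6g (the Gr1 gene) were detected in both libraries. Cd34 was at 53.8 CPM in vehicle and 0.118 CPM in retinoic acid, while both sorts selected Cd34- cells; CPM are counts scaled to the same library total. Neutrophil maturation genes held 0.330% of all UMIs in vehicle and 6.75% in retinoic acid.

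Secreted and granule proteins are threaded into the ER through the Sec61 channel, folded by chaperones such as BiP (Hspa5), linked by disulfide isomerases, and sent back from the Golgi by KDEL receptors when they are ER residents. Misfolded chains are pulled out and degraded. When folding demand exceeds capacity, the sensors IRE1 (Ern1), PERK (Eif2ak3) and ATF6 start the unfolded protein response, which acts through XBP1, ATF4 and cleaved ATF6 on many of the genes named here. Promyelocytes are the stage at which neutrophil precursors make the serine proteases and myeloperoxidase of primary granules, proteins that pass through this machinery.

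Promoters of some of these genes hold a DNA sequence through which the response is known to act, so the promoters are given first. The ER stress response element (ERSE) is CCAAT and CCACG held 9 bases apart and is known to bind NF-Y at one end and ATF6 or XBP1 at the other. RefSeq windows of GRCm38.p6, running from 250 bases before to 50 bases after a gene's start, were found for 35 of the 42 genes. Both strands were searched. The ERSE letters were present in 9 of the 35 (25.7%), against 37 of all 27025 genes with a window (0.137%) and 9 of the 4456 genes with a window and at least 20 CPM in either library (0.202%). Among members at 20 CPM with a window, 7 held the letters and 18 did not. Both sets of genes include the members, so those 7 are among the 9 of the 4456. By role, 6 of 9 chaperones with a window held it, but 0 of 5 translocon genes and 0 of 4 sensors and transcription factors. A match is a description of letters and does not show binding. The members were picked as genes of ER folding and this response, so their share is not independent of that choice.

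The 10 sites are printed 5′ to 3′ in the direction of the motif to show how the spacer differs between genes while the ends are fixed. The capitals are the fixed letters of the element.
Hspa5: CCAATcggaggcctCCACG
Hsp90b1, distal site: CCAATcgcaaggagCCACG
Hsp90b1, proximal site: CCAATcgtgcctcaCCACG
Calr: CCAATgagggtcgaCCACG
Canx: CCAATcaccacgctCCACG
Dnajc3: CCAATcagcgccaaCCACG
Creld2: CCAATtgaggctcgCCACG
Pdia6: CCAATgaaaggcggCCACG
Syvn1: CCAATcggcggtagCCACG
Derl3: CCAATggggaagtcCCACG

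The bases upstream of the start are given for the 3 chaperones that the results below turn on, on the strand of the gene, with the ERSE letters in capitals. Hspa5 encodes BiP and its upstream bases lie at chr2:34771840-34772089 on the plus strand. Its ERSE begins 65 bases upstream of the start.
Hspa5: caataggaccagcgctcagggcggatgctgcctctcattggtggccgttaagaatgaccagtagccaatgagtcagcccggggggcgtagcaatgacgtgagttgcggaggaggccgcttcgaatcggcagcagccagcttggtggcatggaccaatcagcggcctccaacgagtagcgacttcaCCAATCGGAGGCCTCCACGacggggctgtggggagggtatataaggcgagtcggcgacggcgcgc
Hsp90b1 encodes GRP94, the HSP90 of the ER, and its upstream bases lie at chr10:86705445-86705694 on the minus strand. It was the only member whose window held 2 ERSE matches, of which the proximal one reads on the opposite strand.
Hsp90b1: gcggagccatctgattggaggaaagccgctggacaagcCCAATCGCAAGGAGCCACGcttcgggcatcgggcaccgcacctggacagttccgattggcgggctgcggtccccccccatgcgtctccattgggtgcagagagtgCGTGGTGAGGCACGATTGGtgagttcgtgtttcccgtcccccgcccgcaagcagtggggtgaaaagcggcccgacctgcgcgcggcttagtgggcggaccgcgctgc
Calr encodes calreticulin, a lectin chaperone that binds glycoproteins and calcium. Its upstream bases lie at chr8:84846932-84847181 on the minus strand, and its ERSE reads on the strand opposite to the gene.
Calr: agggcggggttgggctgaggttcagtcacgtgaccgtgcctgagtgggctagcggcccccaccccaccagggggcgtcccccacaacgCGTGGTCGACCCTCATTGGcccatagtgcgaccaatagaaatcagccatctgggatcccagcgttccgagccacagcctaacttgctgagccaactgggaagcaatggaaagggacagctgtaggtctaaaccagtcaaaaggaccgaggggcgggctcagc

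Other stress elements were fewer. The ERSE-II letters, ATTGG and CCACG with 1 base between them, were in the windows of Dnajb11 and Herpud1, 2 of 35 (5.71%) against 0.0444% of all genes. The core of the XBP1 element, TGACGTGG, was found in 1 member, Kdelr3 (2.86% against 0.714%). The C/EBP-ATF element TGATGNAA, through which ATF4 and CHOP are known to act, was in 5 of 35 members (14.3%) against 4.51% of all genes. It was held by 3 of the 4 ATF4 and CHOP targets, and the 5 sites are shown because their members differ in behaviour below. The capitals are the fixed letters of the element.
Asns: TGATGaAA
Chac1: TGATGcAA
Trib3: TGATGtAA
Herpud1: TGATGcAA
Kdelr1: TGATGgAA

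Together the 42 genes held 1.295% of all UMIs in vehicle and 1.008% in retinoic acid. The retinoic acid sum was 0.778 times that of vehicle, a log2 ratio of -0.36 (-0.37 to -0.36). The difference sat in a subset of the genes. Calreticulin, the translocon and its TRAP partner, and several disulfide isomerases were lower in the retinoic acid library, while BiP, most co-chaperones and the transcription factor Xbp1 were at like levels and Atf4 was somewhat higher. The degradation genes were divided, with Derl1 (-0.39) and Syvn1 (-0.29) lower and Sel1l (0.26) and Herpud1 (0.19) higher. Of the 42 genes, 32 reached 20 CPM in either library. Of these, 14 were higher and 18 lower with retinoic acid, against 50.5% higher and 49.5% lower over the 5548 genes at this level. When both libraries were set to the shares of phases among vehicle cells, 9 members were higher and 23 lower, because Canx, Dnajc3, Sdf2l1, Creld2 and Derl2 were then slightly below 0. Their median log2 ratio was -0.13, against 0.01 over all 5548 genes, whose quartiles were -0.25 and 0.24.

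A difference of at least 2-fold was reached by 8.07% of the 5548 genes, 3.03% higher and 5.05% lower. Of the 32 members 0 were at least 2-fold higher and 1, Calr, was at least 2-fold lower (3.13% of the 32), a share no larger than that of all genes. At 1.5-fold, 0 members were higher (8.15% of all genes) and 4 were lower: Calr, Sec61a1, Ssr2 and Pdia4 (12.5%, against 10.1% of all genes). UMI counting at the 3′ end takes 1 tag per molecule, so CPM is not divided by gene length and levels of different genes are compared only as captured molecules.

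**Figure D1:**
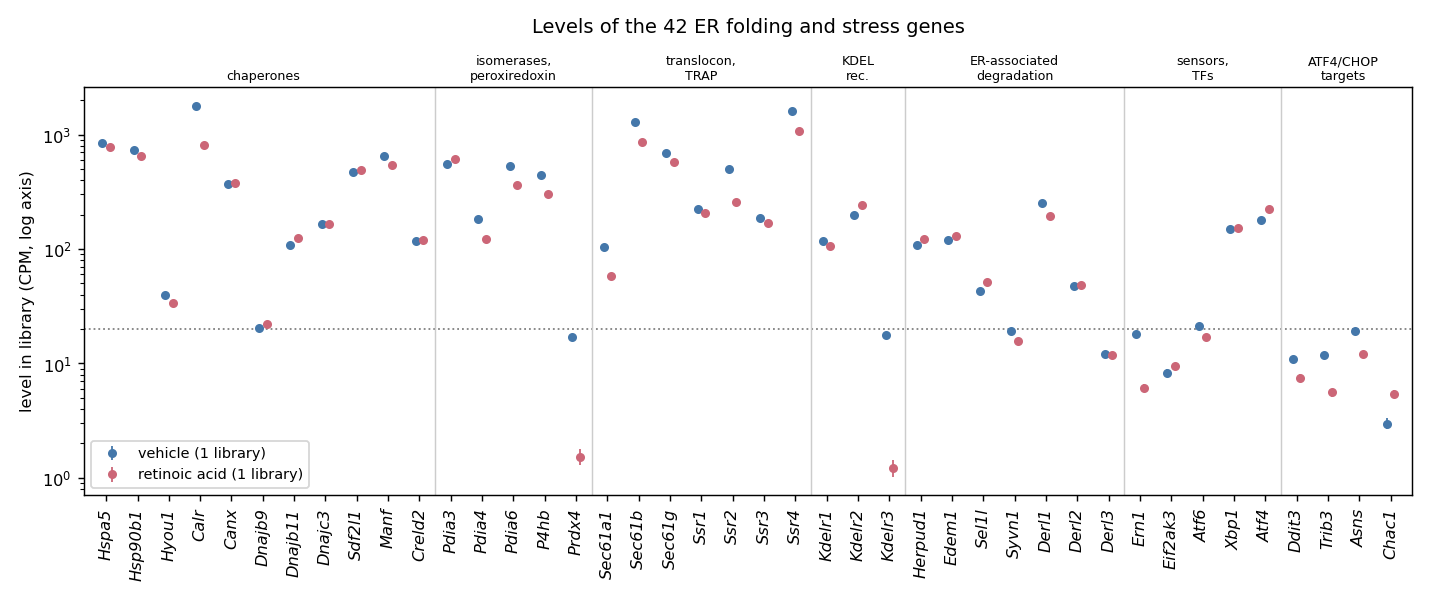
Level of each of the 42 genes in the vehicle (blue) and retinoic acid (red) library, in CPM on a log axis, ordered by role. Each point is 1 library, bars are exact Poisson intervals (mostly smaller than the point) and the dotted line marks 20 CPM. Calr lies at 1772 CPM in vehicle and 816 CPM in retinoic acid, while Prdx4 and Kdelr3 are the members with the widest gap.

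Among the chaperones, Calr was the most abundant member in vehicle cells and the one that differed most. It was at 1772 CPM (1764 to 1781) in vehicle and 816 CPM in retinoic acid, a log2 ratio of -1.12 (-1.13 to -1.11). Its share of the module's UMIs was 13.7% in vehicle and 8.10% in retinoic acid. Canx, the membrane-bound lectin chaperone that works beside calreticulin, was at 369 CPM and 376 CPM (log2 ratio 0.03). The pair thus differed in opposite directions, and Canx by a value that was slightly negative when every cell was given equal weight or the phases were set equal.

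Hspa5, the master chaperone and the usual readout of ER stress, was at 849 CPM in vehicle and 780 CPM in retinoic acid (log2 ratio -0.12). Hsp90b1, which folds a narrower set of secreted and surface proteins, was at 731 CPM and 652 CPM (-0.17). Both ratios lie between the quartiles of all genes. Hyou1, a nucleotide exchange factor for BiP, was at 39.8 CPM and 33.8 CPM (-0.23). Manf, a secreted BiP partner induced by ER stress, was at 649 CPM and 541 CPM (-0.26).

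The co-chaperones and small stress-induced genes were close to even. Dnajb11, a J-protein that brings clients to BiP, was at 109 CPM in vehicle and 125 CPM in retinoic acid (0.20). Dnajc3, which also restrains PERK, was at 166 CPM in both (0.00). Sdf2l1, which works with Dnajb11, was at 470 CPM and 488 CPM (0.05), and Creld2 was at 118 CPM and 120 CPM (0.02). Dnajb9, a J-protein that holds IRE1 in check, was at 20.5 CPM and 22.3 CPM (0.12). Of the 11 chaperones and co-chaperones, 6 were above and 5 below a ratio of 0, with a median of 0.00. Their summed share was nevertheless lower, 0.529% of UMIs in vehicle against 0.412% in retinoic acid (-0.36), and Calr made up most of that gap.

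The disulfide isomerases make and reshuffle the bonds between cysteines of folding proteins, and 3 of the 4 at 20 CPM were lower with retinoic acid. Pdia4 was at 182 CPM in vehicle and 121 CPM in retinoic acid (-0.59), Pdia6 at 532 CPM and 362 CPM (-0.56), and P4hb at 442 CPM and 300 CPM (-0.56). Pdia3, the isomerase that docks on calreticulin and calnexin to act on glycoproteins, was higher, at 550 CPM and 608 CPM (0.14). Calr and its docking partner Pdia3 therefore differed in opposite directions between the libraries. Prdx4, the ER peroxiredoxin that turns peroxide into disulfides, stayed under 20 CPM in both but differed widely, with 1680 counts (17.0 CPM) in vehicle and 168 counts (1.53 CPM) in retinoic acid, a log2 ratio of -3.47.

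All 7 translocon and TRAP genes were lower in the retinoic acid library, where 49.5% of all genes were, except that Ssr1 turned to 0.02 when the granule and maturation genes were left out of the library total. Their sum was 0.458% of UMIs in vehicle and 0.320% in retinoic acid (-0.51, from -0.52 to -0.51). Sec61a1, the channel itself, was at 104 CPM and 58.5 CPM (-0.82). Sec61b, its tail-anchored beta subunit, was at 1281 CPM and 869 CPM (-0.56), and Sec61g, the small gamma subunit, at 692 CPM and 570 CPM (-0.28).

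The TRAP complex sits beside the channel and helps insertion of certain signal sequences. Ssr2 was at 499 CPM in vehicle and 259 CPM in retinoic acid (-0.95), just inside the 2-fold limit. Ssr4 was at 1593 CPM and 1070 CPM (-0.57). The other subunits differed little, Ssr1 at 222 CPM and 208 CPM (-0.09) and Ssr3 at 187 CPM and 170 CPM (-0.14). The 4 subunits of 1 complex thus spanned ratios from -0.95 to -0.09.

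The KDEL receptors return ER residents from the Golgi, and the 3 paralogs went apart. Kdelr1 was at 116 CPM in vehicle and 105 CPM in retinoic acid (-0.14). Kdelr2 was at 198 CPM and 241 CPM (0.28). Kdelr3 had 1769 counts (17.8 CPM) in vehicle and 134 counts (1.22 CPM) in retinoic acid (-3.87), the widest difference of the 42 genes. Their sum was almost even (0.07), since Kdelr3 carried only 0.138% of the module in vehicle.

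Of the degradation genes at 20 CPM, 4 were higher and 1 lower with retinoic acid, all by less than 1.5-fold. Herpud1, which organises the degradation complex, was at 108 CPM in vehicle and 123 CPM in retinoic acid (0.19). Edem1, a lectin that marks misfolded glycoproteins, was at 120 CPM and 129 CPM (0.10), and Sel1l, the adaptor of the ligase, was at 43.3 CPM and 51.7 CPM (0.26). Derl2 was at 47.1 CPM and 48.6 CPM (0.05), and its paralog Derl1 at 252 CPM and 193 CPM (-0.39). Syvn1, the ligase HRD1, was at 19.4 CPM and 15.8 CPM (-0.29), and Derl3 at 12.1 CPM and 11.9 CPM (-0.02), both under 20 CPM.

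The sensors were lowly captured. Ern1, the IRE1 kinase and nuclease, was at 18.2 CPM in vehicle and 6.10 CPM in retinoic acid (-1.58). Eif2ak3, the PERK kinase, was at 8.33 CPM and 9.50 CPM (0.19), and Atf6 at 21.2 CPM and 17.0 CPM (-0.32). Only the IRE1 gene was thus far apart. The transcription factors were abundant and near even, Xbp1 at 150 CPM and 153 CPM (0.03) and Atf4 at 179 CPM and 224 CPM (0.32), the highest ratio among the 32 members. A 3′ count does not distinguish spliced from unspliced Xbp1 and does not see the translation of Atf4, the steps at which both are mainly regulated.

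The 4 ATF4 and CHOP targets were all under 20 CPM, and 3 of them were lower with retinoic acid. Ddit3, which encodes CHOP, was at 10.98 CPM in vehicle and 7.51 CPM in retinoic acid (-0.55). Trib3, a pseudokinase induced by CHOP, was at 11.8 CPM and 5.58 CPM (-1.08), and Asns, asparagine synthetase, at 19.4 CPM and 12.1 CPM (-0.68). Chac1, a glutathione-degrading enzyme, was the exception, with 296 counts (2.99 CPM) and 598 counts (5.43 CPM), a log2 ratio of 0.86 (0.66 to 1.07). Asns, Trib3 and Chac1 all hold the C/EBP-ATF letters printed above, and Chac1 differed in the opposite direction from the other two.

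**Figure D2:**
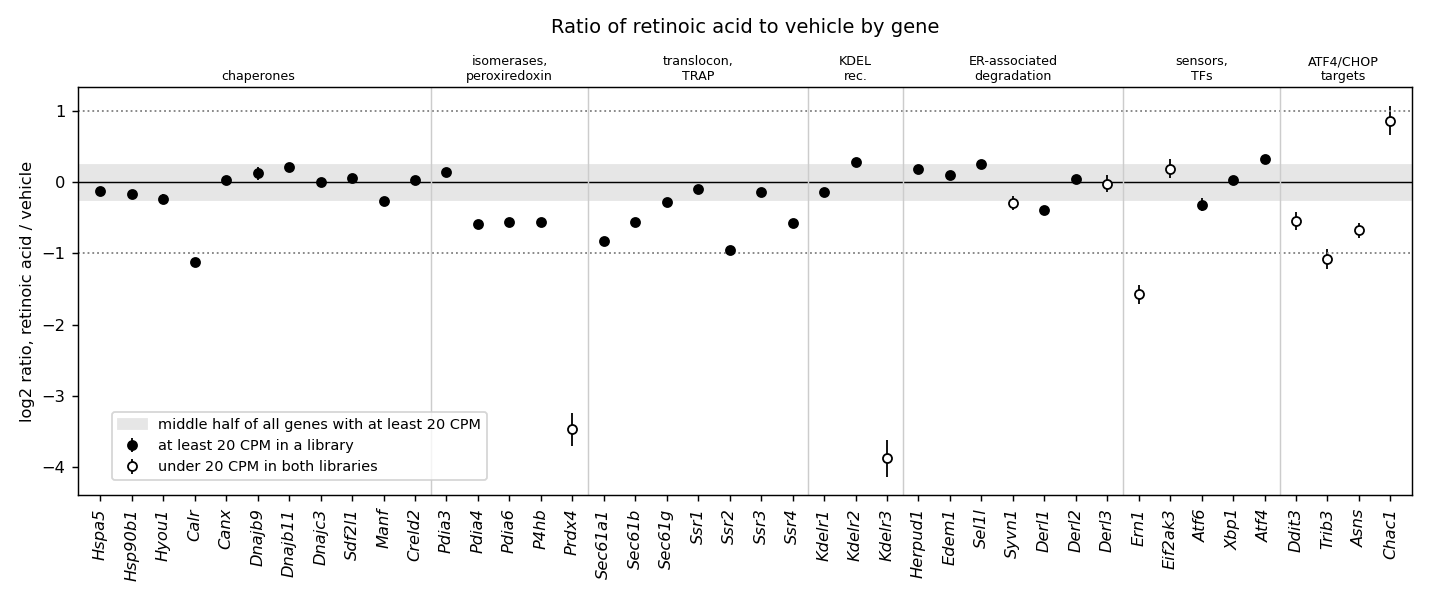
Log2 ratio of retinoic acid to vehicle for each of the 42 genes, ordered by role, with exact binomial intervals. Filled points reached 20 CPM in a library and open points did not, the grey band spans the quartiles of the 5548 genes at this level (-0.25 to 0.24) and dotted lines mark 2-fold. All 7 translocon and TRAP genes lie below 0 (Ssr1 at 0.02 with granule and maturation genes left out of the total), and Calr is the single filled point beyond a dotted line.

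Genes of the same pathway outside the 42 were lower more often than they were higher. Of 140 further genes in 6 lists, 109 reached 20 CPM, of which 28 were above and 81 below a ratio of 0, with a median of -0.24. In the 2-fold count, 0 were higher and 5 lower (4.59%, against 5.05% of all genes). The lowest were Txndc5 (99.5 CPM and 20.6 CPM, -2.27), a disulfide isomerase, Pdia5 (48.9 CPM and 16.2 CPM, -1.60), another isomerase, and Man1a (33.8 CPM and 12.1 CPM, -1.48), a mannosidase. The remaining 2, named after their values were seen, were the selenoprotein gene Selenom (-1.26) and the glycoprotein folding sensor Uggt1 (-1.03).

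By list, the median ratio was -0.40 for other folding and oxidation genes (18 of 23 below 0), -0.38 for N-glycosylation and glycan trimming (18 of 21 below 0), -0.21 for targeting and signal peptidase (19 of 23 below 0) and -0.20 for other degradation genes (11 of 16 below 0). Other ATF4 targets had a median of -0.15, with 12 of 15 below 0. Other stress signalling genes went the other way, with a median of 0.22 and 8 of 11 above 0. The 3 highest ratios of all lists were those of Eif2ak2 (14.3 CPM and 26.3 CPM, 0.88), the kinase PKR, Atf5 (27.8 CPM and 48.2 CPM, 0.79), a transcription factor of the stress response, and Psph (45.6 CPM and 76.5 CPM, 0.75), an enzyme of serine synthesis.

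The libraries also differed in markers of other cell types, given here because several of these cells are rich in ER. Summed over 11 genes, B and plasma cell markers were at 7.42 CPM in vehicle and 44.9 CPM in retinoic acid, of which Ighm made up 4.98 CPM and 42.6 CPM. The plasma cell genes Sdc1 and Prdm1 were at 0 in both libraries, and Mzb1 had 0 counts in vehicle and 1 in retinoic acid. Mast cell and basophil markers were at 821 CPM and 68.3 CPM, eosinophil markers at 114 CPM and 30.5 CPM, and monocyte and macrophage markers at 81.1 CPM and 9.79 CPM. Dendritic cell markers were at 266 CPM and 125 CPM, megakaryocyte markers at 29.1 CPM and 1.18 CPM, and erythroid markers at 4.22 CPM and 0.808 CPM. Several of these sums came mainly from a single gene, at least in vehicle. Cpa3 made up 570 CPM and 0.0999 CPM of the mast cell and basophil sum, and Mcpt8 122 CPM and 63.1 CPM. Of the cells used for the shares per cell below, 3068 of 5282 vehicle and 3 of 6659 retinoic acid cells held Cpa3. Ms4a2 was higher in retinoic acid (1.45 CPM and 2.05 CPM), while Gata2, Hdc, Il4 and Cma1 were lower. Whether the cells with Cpa3 were mast cells or basophils was not tested. Adgre1 made up 73.7 CPM and 5.15 CPM of the monocyte and macrophage sum. Bst2 made up 263 CPM and 124 CPM of the dendritic cell sum, with Siglech, Cd209a and Xcr1 at 0 in both. Itga2b made up 28.9 CPM and 0.491 CPM of the megakaryocyte sum, while Gp9 and Gp1bb, under 1 CPM, were higher in retinoic acid. T and NK cell markers were at 1284 CPM and 575 CPM, nearly all of it Nkg7, with Cd3e at 0 in both. The part of any such cells in the module's difference was not tested.

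Cell by cell, the module was a small share of the RNA. Cells with at least 5000 UMIs were thinned to 5000, which left out 194 vehicle and 481 retinoic acid cells. The median vehicle cell then carried 61 UMIs of the 42 genes, 1.22% of its UMIs, with quartiles of 1.02% and 1.46%. The median retinoic acid cell carried 47, or 0.94%, with quartiles of 0.72% and 1.18%. Without thinning the medians were 1.23% and 0.923%. The distributions overlapped widely: 81.1% of vehicle cells were above the retinoic acid median, and 20.6% of retinoic acid cells were above the vehicle median.

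**Figure D3:**
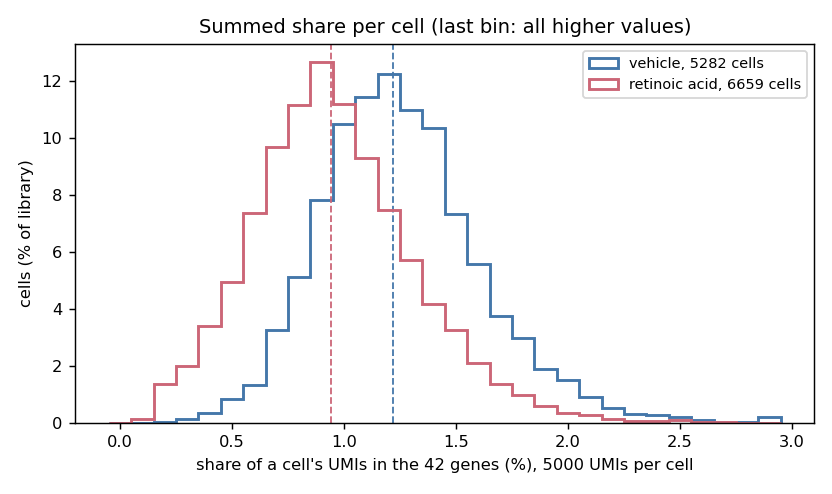
Module share per cell in percent (horizontal axis) against the percent of cells of each library (vertical axis), for 5282 vehicle and 6659 retinoic acid cells thinned to 5000 UMIs. Dashed lines are the medians, 1.22% and 0.94%, and both distributions have 1 peak.

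The spread between cells was larger than counting alone gives. The standard deviation over cells was 0.366 percentage points in vehicle and 0.364 in retinoic acid, where counting error at this depth accounts for 0.158 and 0.138. The share was higher in cells with more RNA. From the shallowest to the deepest quartile of cells the median went from 1.08% to 1.34% in vehicle and from 0.72% to 1.06% in retinoic acid, at equal thinned depth. The retinoic acid value was below the vehicle value in each of the 4 quartiles.

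Cell cycle phase moved the share less than the treatment group did. Phases were called from S and G2/M gene scores, which put 52.2% of vehicle and 24.96% of retinoic acid cells in G1. In vehicle the pooled share was 1.22% in G1, 1.34% in S and 1.35% in G2/M cells. In retinoic acid it was 0.899%, 1.03% and 1.04%. Within a phase the median ratio of the 32 members was -0.20 in G1, -0.17 in S and -0.15 in G2/M, against -0.045, -0.069 and -0.028 over all 5548 genes. With granule and maturation genes left out of the total the members' medians were -0.0039, -0.058 and -0.060, against 0.15, 0.043 and 0.058. The summed members were lower in every phase on both totals, by -0.44, -0.38 and -0.37 on all UMIs and by -0.25, -0.27 and -0.29 with those genes left out. On all UMIs Calr was at least 2-fold lower in all 3 phases, and Ssr2 in S (-1.13) and G2/M (-1.07), where 6.16% of all genes were in G1, 4.65% in S and 4.47% in G2/M. With those genes left out, 1 of the 32 members was at least 2-fold lower in G1, 1 in S and 0 in G2/M. Of all 5548 genes, 4.63%, 4.02% and 3.97% were.

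The relation to neutrophil maturation was close in retinoic acid cells. Cells of each library were put in quartiles by the percent of their UMIs in neutrophil maturation genes such as Camp, Ngp and S100a8. Of the 25 genes of this list at 20 CPM, 23 were higher with retinoic acid and 2 lower. The 2 were Anxa1 (441 CPM in vehicle and 55.3 CPM in retinoic acid) and Mgst1 (255 CPM and 190 CPM). They held a sizeable part of the list's 3302 CPM in vehicle, and their part in the vehicle ranking was not tested. In retinoic acid the module held 1.14%, 1.09%, 0.986% and 0.716% of UMIs from the least to the most mature quartile, in which maturation genes took a median of 0.98%, 2.56%, 6.08% and 21.2% of a cell. Because those genes fill the total, the module was also taken as a share of the remaining genes, where it was 1.18%, 1.15%, 1.08% and 0.926%. In vehicle, where the median of the most mature quartile was only 0.44%, the module held 1.31%, 1.32%, 1.31% and 1.24%.

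Between the most and the least mature quartile of retinoic acid cells, 29 of the 32 members were lower in the most mature, with a median of -0.57, against -0.39 over all 5548 genes. In this contrast 10% of all genes and 3 of the 32 members (9.38%) were at least 2-fold lower, and 3.17% of all genes and 0 members were at least 2-fold higher. In vehicle cells 0 members were 2-fold apart in either direction, where 0.018% of all genes were lower and 1.77% higher. The 3 members in retinoic acid cells were Ssr2 (346 CPM against 125 CPM, -1.46), Calr (1028 CPM against 456 CPM, -1.17) and Pdia6 (451 CPM against 214 CPM, -1.07). With the granule and maturation genes left out of the total, 26 of 32 were lower, the median was -0.25 and only Ssr2 stayed beyond 2-fold (-1.14). No value over all genes is given for this contrast on that total.

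Some members of the response itself did not follow. Edem1 (115 CPM in the least and 139 CPM in the most mature quartile, 0.27), Dnajb9 (21.8 CPM and 25.05 CPM, 0.20) and Xbp1 (144 CPM and 158 CPM, 0.13) were the 3 members of the 32 that were higher in the most mature cells. Edem1 and Dnajb9 are known targets of the IRE1 and XBP1 branch. Asns, under 20 CPM, went furthest the other way, from 16.8 CPM to 3.21 CPM (-2.38).

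The difference between the libraries was also taken within the same quartiles. The summed members were lower with retinoic acid at both ends. In the least mature quartiles the sum had a ratio of -0.19 (-0.20 to -0.19), or -0.16 with granule and maturation genes left out of the total. In the most mature quartiles these were -0.79 and -0.45. In the least mature quartiles the median ratio of the 32 members was -0.0047, with 16 above 0 and 0 at least 2-fold lower, against a median of 0.058 and 3.75% of all genes 2-fold lower. In the most mature quartiles it was -0.50, with 3 above 0 and 6 at least 2-fold lower, against -0.24 and 10.8% of all genes. With granule and maturation genes left out of the total, the most mature quartiles gave a median of -0.16, against 0.10 over all genes. Of the 32 members, 12 were above 0 and 2 at least 2-fold lower, against 58.7% and 6.09% of all genes. Calr was lower at both ends, by -0.84 in the least and -1.79 in the most mature quartiles. Sec61a1 and Ssr2 were also lower at both ends, each by -0.62 in the least mature quartiles and by -1.24 and -1.78 in the most mature, on all UMIs. The quartiles are those of each library's own cells and are not matched in maturation, since the least mature retinoic acid quartile had a higher median maturation share (0.98%) than the most mature vehicle quartile (0.44%). In the most mature quartiles the maturation genes took a median of 21.2% of a retinoic acid cell against 0.44% of a vehicle cell, and the part of that gap in the ratios was not tested beyond the change of total.

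The primary granule genes served as the measure of cargo. Elane, which encodes neutrophil elastase, was at 62.8 CPM in vehicle and 7663 CPM in retinoic acid. Mpo, myeloperoxidase, was at 311 CPM and 0.4996 CPM, and Ctsg, cathepsin G, at 6444 CPM and 5979 CPM. The 3 cargo genes thus went 3 ways between the libraries, higher, lower and nearly even, while most of the folding genes differed by less than 1.5-fold. For each gene, cells at 5000 UMIs were put into a group with 0 UMIs, where it held at least 100 cells, and 3 groups of rising level among the rest.

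In vehicle cells the module share was modestly higher in cells with more Ctsg and nearly flat by Mpo or Elane. Its share was 1.14% (1.14 to 1.15) in the 1845 cells with 0 to 23 Ctsg UMIs, 1.27% at 24 to 37 and 1.36% (1.36 to 1.37) in the 1621 cells with 38 to 115, a log2 ratio of 0.25 (0.24 to 0.27) from lowest to highest. The lowest Ctsg group had 73.6% of cells called G1 and a median depth before thinning of 14291 UMIs. In the highest these were 34.2% and 19474 UMIs, and their part in the ratio was not tested. For Mpo it was 1.25% in the 4127 cells with 0 UMIs and 1.28% in the 354 cells with 7 to 40 UMIs (0.04). For Elane it was 1.25% in the 4438 cells with 0 UMIs and 1.27% in the 134 cells with 3 to 17 UMIs (0.02). Cells rich in Mpo therefore did not carry a visibly larger folding share than cells without it.

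In retinoic acid cells the gradient was steeper. The share was 0.548% (0.539 to 0.557) in the 505 cells with 0 Ctsg UMIs, 0.855% at 1 to 19, 1.04% at 20 to 37 and 1.09% (1.08 to 1.10) in the 2046 cells with 38 to 140, a log2 ratio of 0.99 (0.97 to 1.02). By Elane it was 0.599% in the 460 cells with 0 UMIs, 0.889% at 1 to 24, and 1.03% at both 25 to 49 and 50 to 157, a log2 ratio of 0.79 (0.76 to 0.81). Most of the step lay between cells with none of the gene and cells with some, and above the middle group Elane added nothing.

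The cells without the granule gene were the mature ones. In the 505 cells with 0 Ctsg UMIs, maturation genes took 30.9% of UMIs, 59.6% of the cells were called G1 and the median depth before thinning was 8992 UMIs. In the highest Ctsg group these were 2.36%, 19.8% and 17644 UMIs. With granule and maturation genes left out of the total, the ratio was 0.54 by Ctsg (0.795% to 1.15%) and 0.40 by Elane (0.839% to 1.11%), while the median over all other genes was 0.07 and 0.03. Within G1 cells alone the ratios on the full total were 1.26 and 1.09. Mpo could not be used, since 1 of 6659 retinoic acid cells held a UMI.

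**Figure D4:**
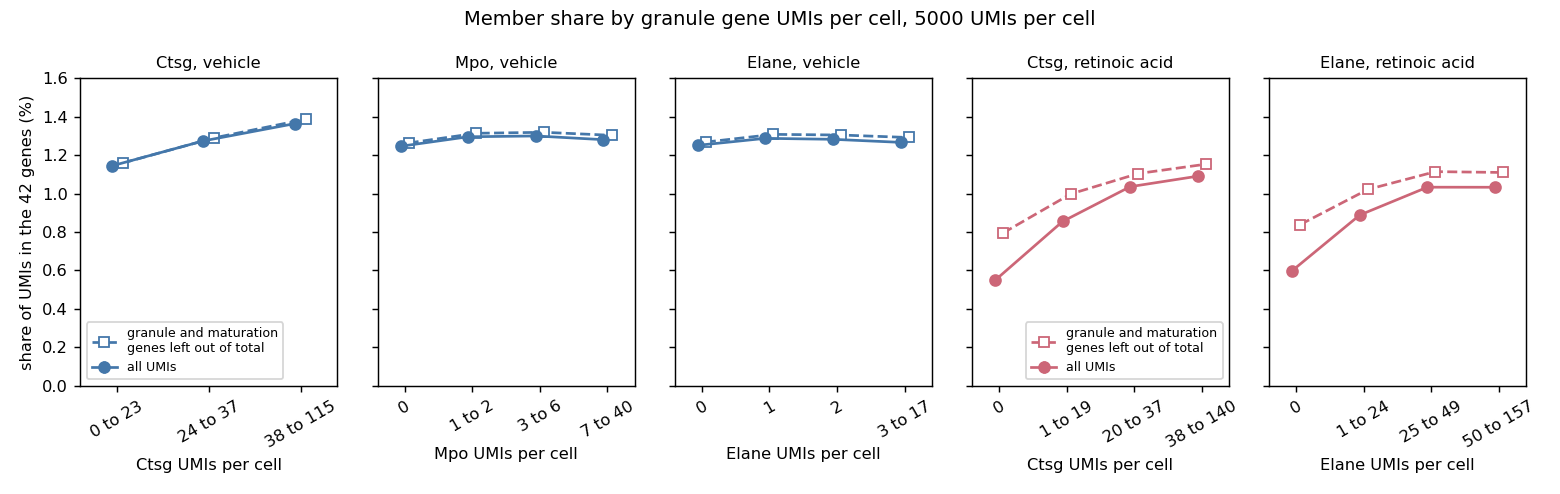
Share of UMIs in the 42 genes (vertical axis, percent) in groups of cells by the UMIs of 1 granule gene per cell (horizontal axis), at 5000 UMIs per cell, for vehicle (blue) and retinoic acid (red) cells. Filled points use all UMIs, with exact binomial intervals smaller than the points, and open squares leave granule and maturation genes out of the total. The line is nearly flat by Mpo and Elane in vehicle and goes from 0.548% to 1.09% by Ctsg in retinoic acid.

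The roles took unequal part in this gradient. On the total without granule and maturation genes, the highest over lowest Ctsg group of retinoic acid cells gave 0.79 for the KDEL receptors, 0.71 for translocon and TRAP, 0.57 for chaperones and 0.43 for isomerases. It gave 0.02 for sensors and transcription factors, -0.01 for degradation genes and -0.35 for the ATF4 and CHOP targets. Xbp1 and Atf4 held most of the UMIs of the sensor and transcription factor sum, so its value says little of the 3 sensors.

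On the full total, 31 of the 32 members were above 0 by Ctsg in retinoic acid cells, with a median of 0.83, against 0.52 over all other genes. In vehicle cells 27 of 32 were above 0, with a median of 0.19. The vehicle values have no value over all genes beside them, and the share of all genes above 0 is given for neither library. These counts therefore do not set the members apart from other genes. The steepest were Ssr2 (93.5 CPM to 304 CPM, 1.70), Kdelr2 (99.0 CPM to 280 CPM, 1.49), Calr (328 CPM to 913 CPM, 1.48), Pdia6 (151 CPM to 407 CPM, 1.43) and Sdf2l1 (208 CPM to 536 CPM, 1.37). Ssr2, Sdf2l1 and Pdia6 were also the steepest in vehicle cells, at 0.85, 0.70 and 0.69. At the flat end in retinoic acid were Xbp1 (143 CPM to 145 CPM, 0.02) and Edem1 (122 CPM to 129 CPM, 0.07), and Dnajb9 was the member below 0 (31.7 CPM to 22.5 CPM, -0.50).

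As a description over single cells, Pearson's r between the module share and the UMIs of Ctsg was 0.27 over 5282 vehicle cells and 0.37 over 6659 retinoic acid cells. For Elane it was 0.01 and 0.26, and for Mpo in vehicle 0.03. With granule and maturation genes left out, the retinoic acid values were 0.26 for Ctsg and 0.18 for Elane. The cells of a library share 1 preparation and are not replicates.

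Cells were also set apart by their own module share. The UMIs of each thinned cell were split at random into 2 sets of 2500, cells were ranked by the module share in one set, and levels were read in the other, so that the counts read did not choose the cells. The genes read were those that ranked the cells, so a higher level in the high quartile is in part given by the ranking, and these values are a description. In vehicle the quartile of cells with the lowest share held 0.9498% and the quartile with the highest held 1.61% (log2 ratio 0.76). In retinoic acid these were 0.614% and 1.34% (1.12). The members' median was 0.66 in vehicle and 0.96 in retinoic acid, and 0.10 and 0.26 over all genes. In an alternative chosen after seeing the data, each member was left out of the sum that ranked the cells for it. The median was then 0.63 in vehicle (-0.05 to 1.5965) and 0.93 in retinoic acid (0.13 to 1.82).

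With all members in the ranking sum, Hspa5 had the highest ratio of the 32 members in both libraries. It was at 394 CPM in low and 1332 CPM in high vehicle cells (1.76) and at 330 CPM and 1289 CPM in retinoic acid cells (1.97). Creld2 had ratios of 1.63 in vehicle and 1.74 in retinoic acid, Sdf2l1 of 1.59 and 1.90, Hsp90b1 of 1.43 and 1.81, and Pdia6 of 1.41 and 1.84. These 5 genes are known to be induced by ER stress. Derl3, under 20 CPM, had the widest ratios, 4.24 CPM to 24.2 CPM in vehicle (2.47) and 2.40 CPM to 21.4 CPM in retinoic acid (3.09).

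Other members had smaller ratios. Ssr4, at 1480 CPM in low and 1721 CPM in high vehicle cells, had a ratio of 0.22, and 0.61 in retinoic acid. Kdelr1 was at 116 CPM and 113 CPM in vehicle (-0.04), the 1 member of the 32 below 0. Xbp1 gave 0.20 in vehicle and 0.38 in retinoic acid, Dnajb9 0.07 and 0.17, and Ern1 0.04 and -0.13. Asns separated the libraries, with 0.36 (-0.16 to 0.89) in vehicle and 2.56 (1.71 to 3.62) in retinoic acid, a difference that was not tested. Calr gave 0.50 in vehicle and 1.30 in retinoic acid.

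**Figure D5:**
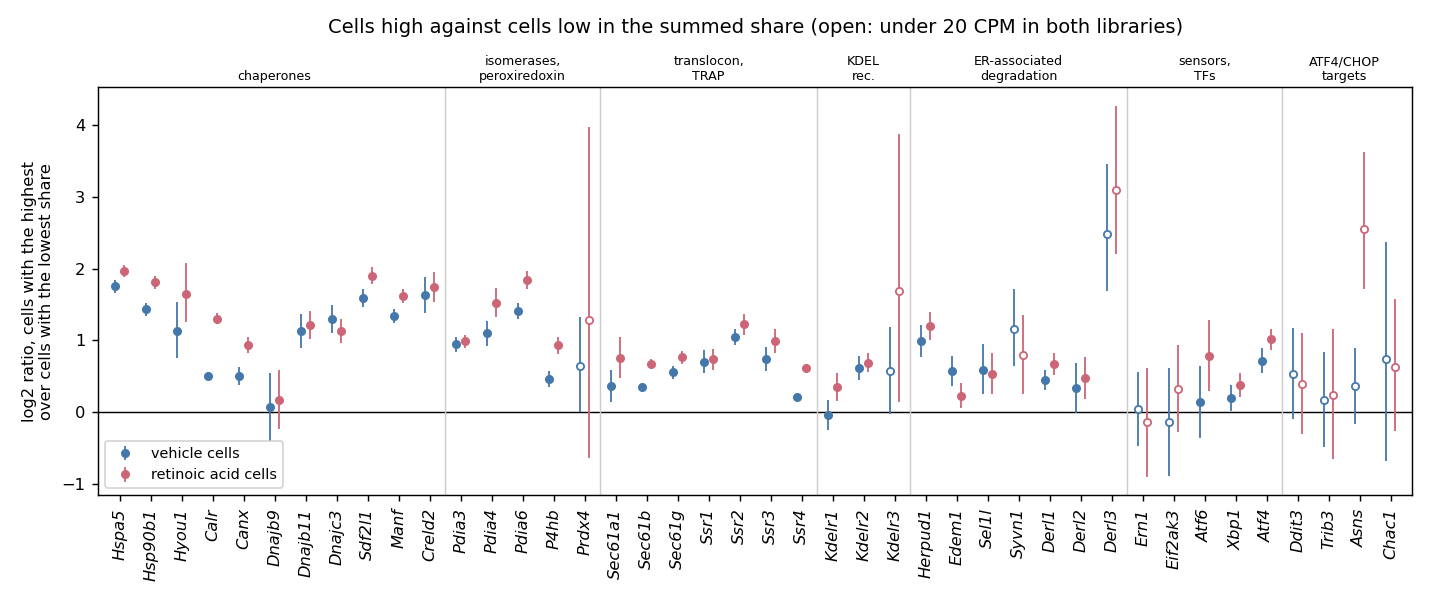
Log2 ratio of each of the 42 genes between the quartile of cells with the highest and the quartile with the lowest module share, in vehicle (blue) and retinoic acid (red) cells, with exact binomial intervals. Cells were ranked on 2500 UMIs and levels read on another 2500, and open points were under 20 CPM in both libraries. Hspa5, Hsp90b1, Sdf2l1, Creld2 and Pdia6 lie above 1.4 in both libraries. Xbp1 lies at 0.20 in vehicle and 0.38 in retinoic acid, and Dnajb9 at 0.07 and 0.17.

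The members whose promoters hold ERSE letters, printed above for Hspa5, Hsp90b1 and Calr, were not alike in this ratio. The 7 of them at 20 CPM had a median high over low ratio of 1.41 in vehicle (0.50 to 1.76) and 1.74 in retinoic acid (0.94 to 1.97). The 18 members at 20 CPM that have a window without ERSE letters had medians of 0.58 (-0.04 to 1.59) and 0.75 (0.17 to 1.90). The ranges overlap: Sdf2l1 reached 1.59 in vehicle without the letters, and Calr and Canx, which hold them, lay below the median of the 32 members there, both at 0.50. In these values each member is part of the sum that ranked the cells, which in part gives its ratio. With each member left out of that sum, vehicle values were 1.48 for Sdf2l1, 0.29 for Calr and 0.47 for Canx. Medians of the sets were not taken that way, so no result is drawn from their difference. In the ratio of retinoic acid to vehicle the same sets had medians of -0.12 and 0.04.

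The granule genes were also higher in cells with a high module share. Ctsg gave 0.64 in vehicle and 1.19 in retinoic acid, Elane 0.20 and 0.78, and Mpo 0.36 in vehicle. Depth, phase and maturation moved with the same ranking. The high quartile had a median of 19450 UMIs before thinning against 14015 in the low quartile in vehicle, and 17670 against 11573 in retinoic acid. G1 calls made up 42.5% of high and 69.7% of low vehicle cells, and 17.9% and 39.2% of retinoic acid cells. Maturation genes took 0.240% of UMIs in high and 0.835% in low vehicle cells, and 3.91% and 17.9% in retinoic acid cells. Their part in the ratios was not tested.

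For single members, r with the summed UMIs of all other members ran from 0.001 (Kdelr1) to 0.56 (Hspa5) in vehicle, with a median of 0.18 over the 32. In retinoic acid it ran from 0.04 (Atf6) to 0.58 (Hspa5), with a median of 0.25. Hsp90b1 (0.53 and 0.58) came next to Hspa5 in both libraries, and Calr was at 0.19 in vehicle and 0.50 in retinoic acid. Among the 4726 other genes at 20 CPM in both libraries, those most like the summed module over vehicle cells were Fkbp11 (r of 0.35), Ostc (0.33), Spcs2 (0.31), Krtcap2 (0.30) and Ddost (0.29), against a median of 0.01. Over retinoic acid cells they were Hsp90aa1 and Npm1 (both 0.42), Ptma (0.42), Hsp90ab1 and Fkbp11 (both 0.40), against a median of 0.04. Fkbp11 stood in both lists.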

How the data were processed

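The authors deposited unnormalised UMI counts, with genes as rows and cell barcodes as columns, for 1 vehicle and 1 retinoic acid library. They were made with Cell Ranger 4.0.0 on builds named mm10 and GRCm38.p4, per the submitters' processing notes. Per the labels' protocols the libraries used 3′ single-cell kits with a target of 6000 cells. No other filter or normalisation is given in the sources used here. The 42 members and all gene lists were chosen with earlier results of these data known.

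A barcode was kept when it had 1000 UMIs or more, 500 genes or more and no more than 10% mitochondrial UMIs. This left 5476 vehicle cells with 99107718 UMIs and 7140 retinoic acid cells with 110088247 UMIs. The doublet caller marked 2 and 5 cells (0.0365% and 0.070%), which was taken to mean that it had not worked, and none were removed. Counts were summed per library and given as CPM. The log2 ratio is retinoic acid over vehicle with 0.5 counts added, with an exact binomial 95% interval. CPM carry exact Poisson intervals. The comparison took genes that reached 20 CPM in a library, called at 2-fold. No test was made, because each group is 1 library and cells are not replicates.

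Shares per cell used cells thinned to 5000 UMIs. Phases came from scanpy scores on both libraries together. Groups by granule gene were cells with 0 UMIs, where at least 100, and the others cut at their tertiles. Groups by maturation share and by module share were quartiles of each library's cells. All 42 genes are accounted for by name. Of the other pathway lists, the 3 highest and 3 lowest ratios were named, and the 5 genes most correlated with the module in each library. The calculation was tested on simulated data with 200 changed genes. Promoter windows were matched by symbol to RefSeq, GRCm38.p6. Python 3.11.15, numpy 2.4.6, scipy 1.17.1, pandas 2.3.3, scanpy 1.11.5, R 4.3.3 and edgeR 4.0.16 (TMM scaling alone, as an alternative) were used. Alternatives changed the scaling, cell filters, thresholds, depth and the members counted. Protein sequences were not used here.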

Additional observations from a re-analysis of the deposited data

Results flagged for a closer look

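Prtn3, which encodes the primary granule protease proteinase 3, went with the module in opposite directions in the libraries. From the lowest to the highest Prtn3 group, the share of UMIs in the 42 genes had a log2 ratio of -0.1202 in vehicle cells (-0.13 to -0.11), from 1.29% in the 2594 cells with 0 UMIs to 1.19% in the 894 cells with 3 to 14. In retinoic acid cells the ratio was 0.7309 (0.69 to 0.77), from 0.623% in the 176 cells with 0 UMIs to 1.03% in the 1952 cells with 18 to 70. The opposite signs are what drew attention to it, and the difference between the libraries was not tested. In the 176 retinoic acid cells with 0 Prtn3 UMIs, maturation genes took 29.6% of UMIs, 64.8% of cells were called G1 and the median depth before thinning was 7887 UMIs, against 3.86%, 22.7% and 16245 UMIs in the highest group. The part of these in the ratio was not tested. With granule and maturation genes left out of the total the ratios were -0.12 and 0.32. Of the 32 members, 27 were below 0 by Prtn3 in vehicle cells and 28 above 0 in retinoic acid cells. No value over all genes is given beside these counts, so they do not set the members apart from other genes. Prtn3 itself was at 246 CPM in vehicle and 2819 CPM in retinoic acid, so its groups do not cover the same levels.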

How the results depend on the processing

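No paired analysis was possible because vehicle and retinoic acid had 1 library each. Over 397 recomputed values, 262 lay inside the reported value's counting interval (for counts, within 1.5 times), 135 moved beyond it and 0 reversed a called value. Among the 61 recomputed summary values, 30 moved and none changed sign. The summed log2 ratio of -0.36 became -0.28 with TMM scaling, which adds 0.08 to every ratio, -0.41 with equal weight per cell, -0.25 with granule and maturation genes left out of the total, which adds 0.11 to every ratio, -0.41 at the vehicle shares of phases and -0.33 without Ssr4, the member with most UMIs over both libraries. It was -0.27 without Calr, a setting chosen after seeing the data. The members' median of -0.13 became -0.051 with TMM, -0.018 with granule and maturation genes left out and -0.18 at the vehicle shares of phases. The count of members at least 2-fold apart went from 1 to 5 at 5 CPM or with no limit (Calr, Prdx4, Kdelr3, Ern1 and Trib3) and to 4 at 1.5-fold. The difference of the median share per cell, -0.28 percentage points, was -0.3 with at most 5% mitochondrial UMIs, without the 5% highest doublet scores, without cells of at most 0.1% mitochondrial UMIs, or at 3000 UMIs. It was -0.24 without Ssr4, -0.2 without Calr and -0.23 with granule and maturation genes left out. By Ctsg in vehicle cells 0.25 became 0.28 without Ssr4, 0.44 at 3000 UMIs, where a group with 0 UMIs forms, and 0.19 when cells with the gene were cut at their median. By Ctsg in retinoic acid cells 0.99 became 0.96 without Ssr4, 0.94 at 3000 UMIs, 0.54 with granule and maturation genes left out and 1.26 in G1 cells. By Mpo in vehicle cells 0.04 became 0.090 in G1 cells. By Elane in retinoic acid cells 0.79 became 0.75, 0.40 and 1.09 without Ssr4, with the genes left out and in G1 cells. Of single members, Canx, Ssr1, Dnajc3, Sdf2l1, Creld2 and Derl2 changed sign, and so did Derl3, under 20 CPM (-0.25 to 0.09). With 1 library a group, no setting shows how the values vary between mice.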

Other observations

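Cells high and low in the module share differed in other genes too, listed here by the largest ratios and so chosen after their values were seen. In vehicle cells the eosinophil granule genes Prg2 (16.05 CPM in the low and 80.9 CPM in the high quartile, log2 ratio 2.32) and Epx (37.2 CPM and 150 CPM, 2.01) led. They were followed by Fkbp11, a peptidyl-prolyl isomerase of the secretory pathway (126 CPM and 358 CPM, 1.51), Slc35b1, a transporter of the ER membrane (51.2 CPM and 141 CPM, 1.46), and Pdia5 (23.3 CPM and 61.2 CPM, 1.39). The neutrophil gene Camp was lowest, at 1050 CPM in the low and 27.0 CPM in the high quartile (-5.27). In retinoic acid cells the highest ratios were those of Fkbp11 (51.4 CPM and 255 CPM, 2.31), Phgdh, the entry enzyme of serine synthesis (56.9 CPM and 196 CPM, 1.78), Atf5 (21.6 CPM and 73.1 CPM, 1.75), Ydjc (1.74) and Srm, spermidine synthase (1.64). Ltf, which encodes lactoferrin of the secondary granules, was lowest, at 581 CPM and 8.41 CPM (-6.09).

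The genes most opposed to the module over single cells also differed between the libraries. In vehicle cells they included the ribosomal protein genes Rpl32 (r of -0.31) and Rps24 (-0.28). In retinoic acid cells they were led by the neutrophil maturation genes Ngp (-0.50), S100a8 (-0.48), Camp (-0.46) and S100a9 (-0.46). Cells of a library share 1 preparation, and these values are descriptions over 5282 and 6659 cells.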
